A study of Mus musculus with 8 samples.

Results

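S100 calcium-binding protein genes were examined in RNA-seq data from keratinocytes and skin of wild type and JunB cKO animals. Their 9 members S100a8, S100a9, S100a7a, S100a10, S100a11, S100a6, S100a14, S100a16 and S100a4 were found by symbol in 3 tables, for unperturbed keratinocytes, plucked skin and wounded skin, respectively. All 9 had a locus of their own among the 26457 gene loci of the unperturbed table, and 8 had one among the 47990 loci of the hair plucking table and the 46726 loci of the wound table, where S100a4 shares a locus with S100a3. The genes were chosen by their symbols with earlier results of the FPKM values of these same libraries known, so that their levels and differences are given as a description and without a test.

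S100 proteins are small proteins that bind calcium through a pair of EF-hands and then bind to partner proteins. S100a8 and S100a9 form the heterodimer calprotectin, which binds zinc and manganese, is a major protein of neutrophils, is made by stressed or inflamed keratinocytes and, once secreted, signals through the receptors Tlr4 and Ager. Most S100 genes lie together with the filaggrin, loricrin and small proline-rich protein genes in the epidermal differentiation complex, and several of them belong to the common transcripts of the epidermis. JunB is a subunit of the transcription factor AP-1, which binds the heptamer TGACTCA.

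In the JunB cKO mice (JunB -/- in the labels), Cre driven by the K14 promoter deletes floxed JunB in basal epidermal cells and their progeny, so that fibroblasts and leukocytes of the same skin still carry the gene. Wild type mice (JunB +/+) served as controls, and both genotypes are C57BL/6. The unperturbed pair had no treatment, the plucked pair was taken 4 days after depilation, and the wounded pair 30 days after wounding. RNA of 3 samples was pooled for each library, with 1 library per genotype for the unperturbed and the plucked pair and 2 per genotype for the wounds. Each table nevertheless holds 1 value per genotype, for the wounds the authors' value over both libraries, so that no spread between animals or libraries can be given and no difference below has a replicate check.

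Levels are given in FPKM, fragments per kilobase of transcript scaled to the mapped reads of a library. Differences are given as log2((cKO + 1)/(WT + 1)), which understates differences of genes with low values, and a gene was counted as higher or lower when this value was at least 1 or at most -1, a 2-fold difference. The Junb transcript itself had 268 FPKM in wild type and 31.4 FPKM in JunB cKO in the unperturbed pair, 40.8 and 11.7 FPKM after hair plucking, and 33.4 and 15.4 FPKM in wounds. The labels name keratinocytes for the unperturbed and also for the plucked pair. The 6 basal keratinocyte markers of the unperturbed pair summed to 5977 FPKM in wild type and 5665 FPKM in JunB cKO, against 31.9 and 35.3 FPKM for 8 fibroblast markers. In the plucked pair the fibroblast markers summed to 5185 and 1910 FPKM, so that transcripts of the dermis were abundant in this pair, whose title names a biopsy of skin.

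The depth of the libraries is not stated in the tables. FPKM values of sensory receptor genes with 1 exon, which skin hardly uses, mostly lay on whole multiples of what 1 read is worth. These steps gave an estimate of the reads behind each value. In wounds, where each value joins 2 libraries, 78 of 95 wild type and 26 of 34 JunB cKO values were whole. The wound reads and their intervals are therefore less certain, and the plucked wild type step rests on 7 values. Behind the same FPKM, wild type libraries held 3.39 times the reads of JunB cKO libraries in the unperturbed pair, 1.27 times in the plucked pair and 1.09 times in wounds. In the unperturbed JunB cKO library 1042 of 1215 receptor genes were above 0, with a median of 0.548 FPKM and a 99th percentile of 2.43 FPKM, whereas 49 of 1215 were above 0 in wild type. Values below 2.43 FPKM in this library therefore sit within a range that receptor genes also reach. Intervals below are 95% Poisson intervals from the estimated reads and cover counting error only.

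**Figure D1:**
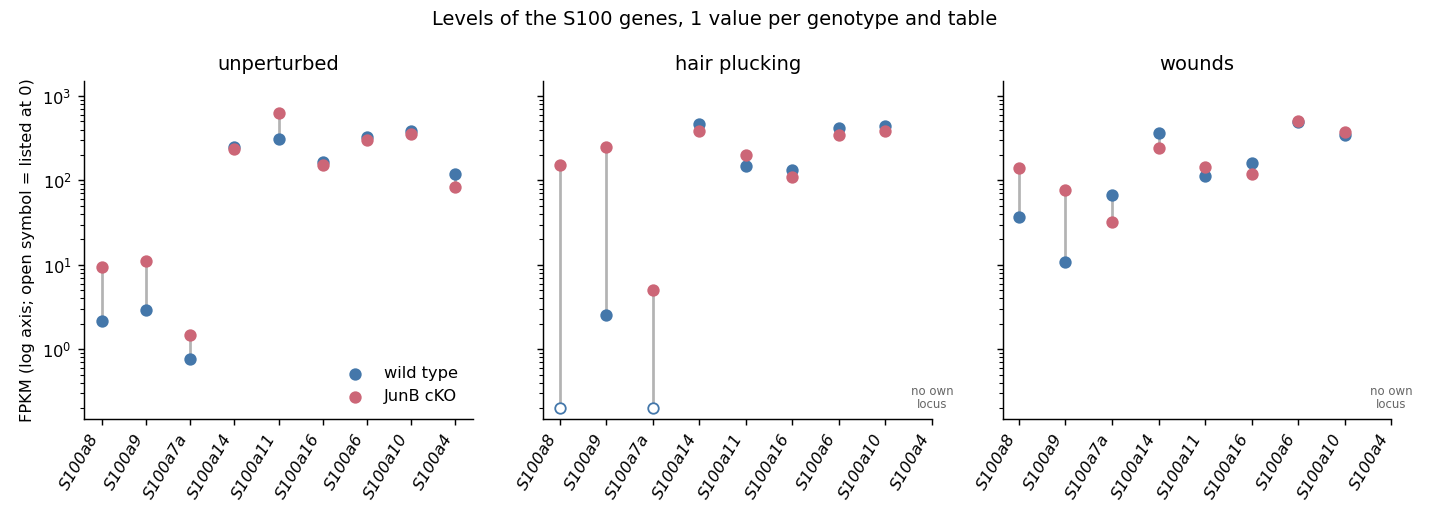
FPKM (log axis) of the 9 S100 genes in wild type (blue) and JunB cKO (red) for the unperturbed, hair plucking and wound tables, 1 point per genotype, with open symbols for genes listed at 0. S100a8 and S100a9 lie higher in JunB cKO in all 3 tables, while S100a10, S100a6, S100a14 and S100a16 lie above 100 FPKM in both genotypes and within 2-fold of each other.

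S100a8 and S100a9, the calprotectin subunits, were the members with the largest differences, and both were at least 2-fold higher in JunB cKO in each of the 3 tables. In unperturbed keratinocytes S100a8 had 2.16 FPKM in wild type and 9.43 FPKM in JunB cKO, a log2 ratio of 1.72. These values rest on 7 and 9 reads, and the 4.36-fold ratio has a counting interval from 1.44 to 13.8. S100a9 had 2.88 FPKM in wild type and 11.2 FPKM in JunB cKO, a log2 ratio of 1.65, from 14 and 16 reads. Its 3.88-fold ratio has a counting interval from 1.77 to 8.57. Both JunB cKO values lie above the 99th percentile of the receptor genes in the same library, but of the 15973 loci with at least 1 FPKM 15.4% were also higher by 2-fold or more in this JunB cKO library, while 1.42% were lower.

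After hair plucking S100a8 was listed at 0 in wild type and had 152 FPKM in JunB cKO, with 0 and 562 reads behind these values. Taken as a count of 0, the wild type value allows up to 0.642 FPKM for S100a8 at 3 reads. This bound does not hold if the listed 0 is a failed estimate. The log2 ratio of 7.26 depends on the added 1 FPKM and is no bound. S100a9 had 2.56 FPKM in wild type, from 13 reads, and 250.4 FPKM in JunB cKO, from 1029 reads. This is a 97.7-fold ratio with a counting interval from 58.4 to 189 and a log2 ratio of 6.14. Among loci with at least 1 FPKM, S100a9 lay at percentile 15.7 of the wild type library and at percentile 97.7 of the JunB cKO library. Of the 16932 loci with this minimum, 18.4% were higher in JunB cKO by 2-fold or more and 16.0% were lower, and 95% of the loci with at least 10 FPKM had a log2 ratio below 2.12.

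In wounds S100a8 had 36.7 FPKM in wild type and 139 FPKM in JunB cKO, from 456 and 1575 reads. The ratio was 3.77-fold, with a counting interval from 3.40 to 4.20 and a log2 ratio of 1.89. S100a9 had 10.9 FPKM in wild type and 77.5 FPKM in JunB cKO, from 151 and 981 reads. The ratio was 7.10-fold, with a counting interval from 5.98 to 8.49 and a log2 ratio of 2.72. Of the 17787 loci with at least 1 FPKM, 5.68% were higher in JunB cKO by 2-fold or more and 5.19% were lower, and 95% of the loci with at least 10 FPKM lay below 0.89 on the log2 scale. Both wound libraries of a genotype enter these values together, so whether 1 of them carries the difference cannot be seen.

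**Figure D2:**
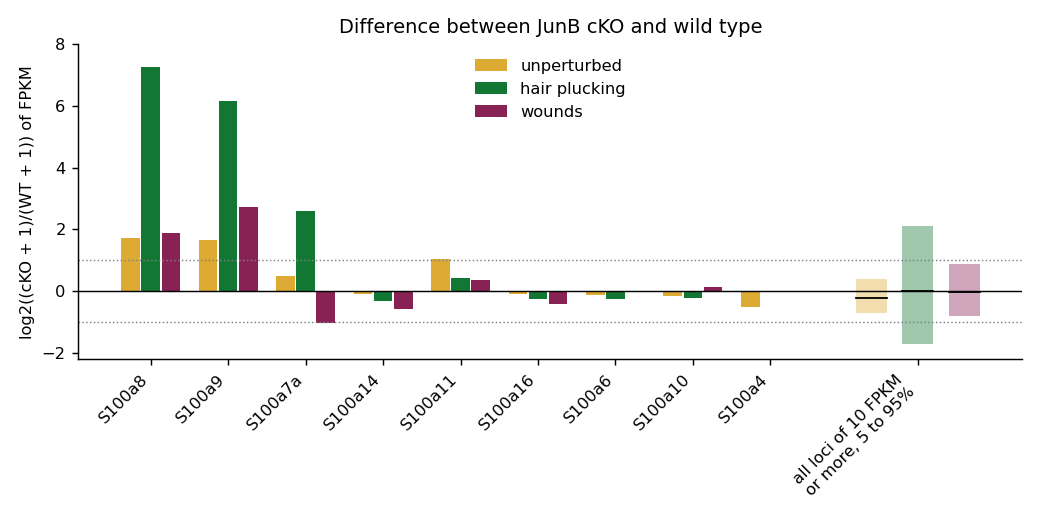
The log2 ratio of JunB cKO over wild type, with 1 FPKM added to both values, for each S100 gene in the unperturbed (yellow), hair plucking (green) and wound (purple) tables, with dotted lines at the 2-fold limits. The pale bars at the right span the 5th to the 95th percentile of all loci with at least 10 FPKM, with a black line at their median. S100a8 and S100a9 stand above the pale bar of the same colour in all 3 tables, and S100a11 does so in the unperturbed pair. S100a7a lies above the bar in the first 2 tables and below it in wounds. S100a7a in the first 2 tables and S100a8 in the unperturbed pair are below the 10 FPKM of the bars. Among loci with at least 1 FPKM the 95th percentile is 1.37 in the unperturbed pair, above the 0.49 of S100a7a, and 2.24 after plucking.

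The calprotectin subunits held a varying share of the S100 transcripts. Of the FPKM summed over the 8 S100 genes with a locus in all tables, S100a8 and S100a9 made up 0.351% in wild type and 1.21% in JunB cKO without perturbation. After hair plucking the share was 0.160% and 22.1%, and in wounds 2.997% and 13.2%, respectively. The summed level of the 8 genes differed far less, with 1436 and 1697 FPKM in the unperturbed pair, 1605 and 1824 FPKM after plucking and 1590 and 1635 FPKM in wounds. The tables were normalised separately and on different sets of loci, so these levels are set side by side and not tested against each other.

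The balance between the subunits was not constant either. The unperturbed pair had 0.750 S100a8 per S100a9 in wild type keratinocytes, from 7 and 14 reads, and 0.844 in JunB cKO keratinocytes, from 9 and 16 reads. The plucked JunB cKO library had 0.608. In wounds S100a8 exceeded S100a9, 3.37 to 1 in wild type skin and 1.79 to 1 in JunB cKO skin. These are ratios of FPKM and thus of levels per length, and no intervals were computed for them. The S100a8 transcript within its locus had 392 bases in the unperturbed pair and 486 bases in the other pairs. Ratios of the unperturbed pair are therefore not fully comparable with the others.

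**Figure D3:**
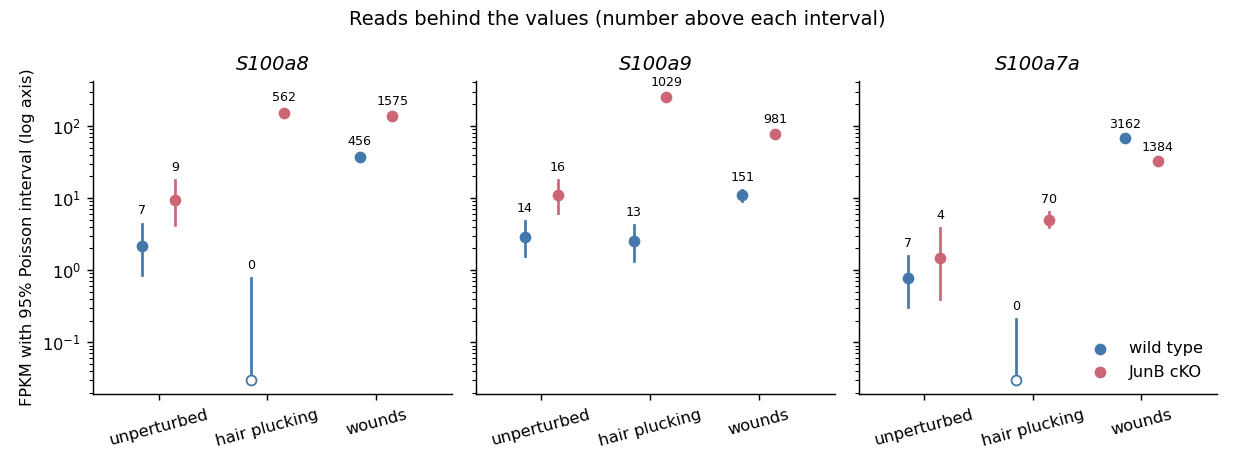
FPKM (log axis) with 95% Poisson intervals from the estimated reads, which are written above each point, for S100a8, S100a9 and S100a7a in wild type (blue) and JunB cKO (red), with open symbols for genes listed at 0. The intervals of open symbols take the listed 0 as a count. Between 4 and 16 reads stand behind each unperturbed value, whereas the JunB cKO values of S100a8 and S100a9 after plucking and in wounds rest on 562 to 1575 reads.

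Markers of cells that carry calprotectin did not all differ in the same direction as S100a8 and S100a9. Of 12 neutrophil markers, Ly6g, Mpo, Elane, Ngp, Camp, Ltf, Retnlg and Fpr1 were listed at 0 in both genotypes after plucking, and the summed level of the list was 13.6 FPKM in wild type and 6.03 FPKM in JunB cKO. Csf3r, the receptor for granulocyte colony-stimulating factor, had 3.55 and 0.551 FPKM there, and Itgam, an integrin of myeloid cells, 7.51 and 2.85 FPKM. Cxcr2 went the other way within 2-fold, with 1.55 and 2.42 FPKM, so that 3 markers were lower and 1 was higher. Itgam had the highest level of the list in both genotypes, so the sums depend largely on this gene. In wounds the list summed to 13.4 FPKM in wild type and 22.5 FPKM in JunB cKO, with Ly6g, Mpo and Elane at 0 in both genotypes and Csf3r the only marker past the 2-fold limit, at 1.80 and 5.60 FPKM. The sum in the unperturbed pair was 1.23 and 10.5 FPKM, 7 of the 12 markers were at 0 in wild type, and Cxcr2 and Retnlg passed the limit with 1.62 and 1.48 FPKM in JunB cKO. All JunB cKO values of the list in this pair lay within the range of the receptor genes of that library. The part of neutrophils in the S100a8 and S100a9 values was not tested.

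All macrophage and muscle markers with a value, and 7 of 8 fibroblast markers, were lower in JunB cKO after plucking. The other fibroblast marker, Thy1, was higher within 2-fold, with 32.7 and 40.8 FPKM. Over all loci with at least 1 FPKM 16.0% were at least 2-fold lower in this pair. Of 9 macrophage markers 8 were at least 2-fold lower in JunB cKO, with sums of 293 and 98.9 FPKM and with the largest difference for Cd68, at 34.9 and 6.23 FPKM. Of 8 fibroblast markers 4 were at least 2-fold lower, with the largest difference for Col3a1, at 2559 and 535 FPKM, and both muscle markers in the table were lower, Ckm with 21.7 and 2.15 FPKM. In wounds no macrophage or fibroblast marker passed the limit, with sums of 558 and 548 FPKM and of 10781 and 13643 FPKM. None passed it in the unperturbed pair either, where the macrophage markers summed to 9.03 and 17.9 FPKM. In that JunB cKO library receptor genes had a median of 0.548 FPKM, against 0 in wild type. Apart from Adgre1, Cd68 and Csf1r, the macrophage markers lay below 2.43 FPKM there, the 99th percentile of the receptor genes. In skin samples, a different number of cells of a type and a different amount of RNA per cell cannot be told apart, and the part of these shifts in the S100 values was not tested.

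**Figure D4:**
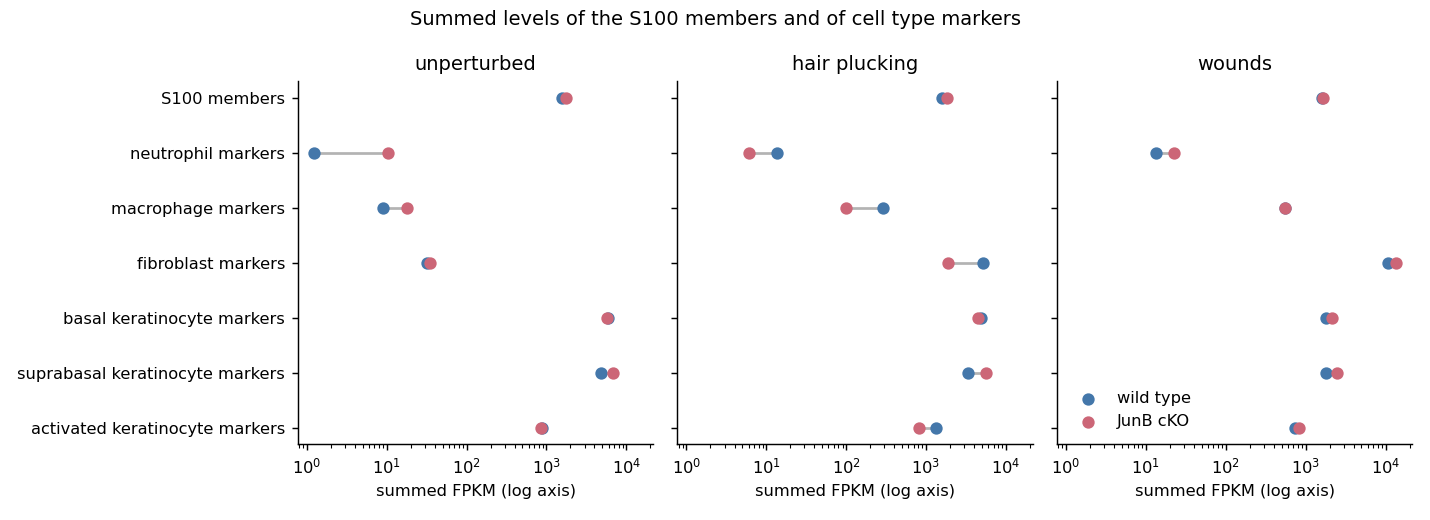
Summed FPKM (log axis) of the S100 genes with a locus of their own and of 6 lists of cell type markers in wild type (blue) and JunB cKO (red), per table. After hair plucking the neutrophil, macrophage and fibroblast sums lie lower in JunB cKO. There 8 of 12 neutrophil markers were listed at 0 in both genotypes, which can be failed estimates. Of the other neutrophil markers 3 were lower and 1, Cxcr2, was higher in JunB cKO after plucking, with Itgam the most abundant. In wounds the neutrophil sum lies higher in JunB cKO, at 22.5 against 13.4 FPKM.

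Among keratinocyte markers, Krt6b, a keratin of activated epidermis, was at least 2-fold higher in JunB cKO in all 3 tables, as were S100a8 and S100a9. Its levels were 1.95 and 9.65 FPKM in the unperturbed pair, 7.90 and 59.2 FPKM after plucking and 3.44 and 17.3 FPKM in wounds. Among the other activation markers Krt16 had 62.0 and 23.8 FPKM and Sprr1b 33.8 and 12.96 FPKM in the unperturbed pair, and Krt6a had 226 and 66.2 FPKM after plucking, so that these 3 were at least 2-fold lower there. In the other tables these 3 and, in all tables, Krt17 were within 2-fold, with log2 ratios on both sides of 0, among them 0.60 for Krt16 in wounds and 0.40 for Sprr1b after plucking. The sum of the 5 activation markers was 872 and 868 FPKM, 1351 and 819 FPKM, and 744 and 815 FPKM, respectively.

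S100a7a, the mouse relative of human psoriasin and koebnerisin, went to opposite sides after plucking and in wounds. It had 0.766 FPKM in wild type and 1.48 FPKM in JunB cKO in the unperturbed pair, from 7 and 4 reads, and the 1.94-fold ratio has a counting interval from 0.416 to 7.62. The JunB cKO value lies below the 95th percentile of the receptor genes, 1.81 FPKM, so no difference was detectable at this depth. After plucking S100a7a was listed at 0 in wild type and had 5.04 FPKM in JunB cKO, from 0 and 70 reads, with a log2 ratio of 2.59. Taken as a count of 0, the wild type value allows up to 0.170 FPKM, unless the listed 0 is a failed estimate. In wounds S100a7a had 67.6 FPKM in wild type and 32.3 FPKM in JunB cKO, from 3162 and 1384 reads. This is a ratio of 0.479 with a counting interval from 0.449 to 0.510 and a log2 ratio of -1.04, which places S100a7a as the only member at least 2-fold lower in any table. S100a7a lay at percentile 91.1 of the wild type wound library and at percentile 79.8 of the JunB cKO wound library.

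S100a11, which takes part in cornified envelopes and in the growth response of keratinocytes to calcium, was the abundant member with a difference past 2-fold. It had 308 FPKM in wild type and 635 FPKM in JunB cKO in the unperturbed pair, from 1581 and 961 reads. The ratio was 2.06-fold with a counting interval from 1.90 to 2.23 and a log2 ratio of 1.04, just past the limit. Among the loci with at least 10 FPKM in this pair 1.63% were at least 2-fold higher, and 95% had a log2 ratio below 0.40. S100a11 thereby went from the third to the first place among the 8 S100 genes. After plucking it had 149 and 202 FPKM, a 1.35-fold ratio with a counting interval from 1.22 to 1.497. In wounds it had 112 and 142 FPKM, a 1.28-fold ratio with a counting interval from 1.19 to 1.37. These ratios were above 1 in all 3 tables, but the last 2 are within the range of most loci of their tables.

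The promoter windows of RefSeq, which reach from 250 bases before to 50 bases after a start on GRCm38.p6, were searched for the AP-1 heptamer TGACTCA and its reverse complement TGAGTCA. It was present in 5.20% of 32851 windows, and 0.222% held it at least 2 times. Of the 15 S100 genes with a window, S100a11 and S100a7l2 held it, and of the members 1 of 7. S100a10 and S100a14 had no entry. The S100a11 window held 2 copies, 136 and 38 bases before the start, at chr3:93520350-93520376 and chr3:93520448-93520474 on the plus strand. They are shown because S100a11 was the only member with the heptamer, which stands in capitals between its 10 neighbouring bases on each side.
S100a11, upstream copy: agagacctgtTGAGTCAcagggactac
S100a11, downstream copy: gggcacagccTGAGTCAggctgagggg

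No copy was found in the windows of S100a8 and S100a9, which says only that these letters are not in these windows. They were therefore also searched for the core promoter word TATAAA on the coding strand, a search added once the values were known. It was present in 8.32% of all windows and in those of 6 of 15 S100 genes, namely S100a3, S100a4, S100a7l2, S100a8, S100a9 and S100g. The S100a8 word lies 30 bases before the RefSeq start at chr3:90669031-90669056 on the plus strand, the S100a4 word 31 bases before the start at chr3:90603729-90603754 on the plus strand, and the S100a9 word begins at the first base of the annotated start at chr3:90695706-90695731 on the minus strand. They are shown with the word in capitals because S100a8 and S100a9 are the pair of members that were higher in all 3 tables, with S100a4 for comparison.
S100a8: agctttcctcTATAAAagcagctgac
S100a9: aggagctgccTATAAAtactgggctt
S100a4: cctggcagggTATAAAtaggtcagat

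S100a10, S100a6, S100a14 and S100a16 were abundant in all libraries and within 2-fold between the genotypes in every table. S100a10, the partner of annexin A2, had 388 FPKM in wild type and 354 FPKM in JunB cKO in the unperturbed pair, 441 and 380.3 FPKM after plucking, and 344 and 377 FPKM in wounds. S100a6, also called calcyclin, had 323 and 300.3 FPKM, 414 and 345 FPKM, and 496 and 504 FPKM, respectively. The log2 ratios of this pair lay between -0.26 and 0.13. Another scaling of the unperturbed libraries turned the sign of S100a10, S100a6, S100a14 and S100a16, so no direction is given for them there.

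S100a14 and S100a16, which lie next to each other and are made by many epithelia, had similar ratios. S100a14 had 247 and 232 FPKM in the unperturbed pair, 466 and 379 FPKM after plucking, and 364 and 244 FPKM in wounds, with log2 ratios of -0.09, -0.30 and -0.58. S100a16 had 163 and 153 FPKM, 132 and 111 FPKM, and 158 and 119.6 FPKM, with log2 ratios of -0.10, -0.25 and -0.40. In wounds 5% of the loci with at least 10 FPKM lay below -0.79, so that both genes stayed within the range of most loci. S100a14 was first in the order of levels among the S100 genes in plucked wild type skin and second after S100a10 in plucked JunB cKO skin.

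S100a4, known from fibroblasts and motile cells, had a locus of its own only in the unperturbed table. It had 119 FPKM in wild type and 83.4 FPKM in JunB cKO there, a log2 ratio of -0.51, which is -0.36 and -0.29 under the other scalings. In the other tables the authors' loci join Gm42674, S100a3 and S100a4 at chr3:90560556-90606045, and their values cannot be assigned to 1 gene. This locus had 294 and 209 FPKM after plucking and 892 and 732 FPKM in wounds, with log2 ratios of -0.49 and -0.28. The sum of S100a3 and S100a4 in the unperturbed pair was 127 and 94.4 FPKM, a log2 ratio of -0.42.

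Across the members, 3 of 9 were higher by 2-fold or more in JunB cKO and 0 lower in the unperturbed pair, namely S100a8, S100a9 and S100a11, against 15.4% and 1.42% of all loci with at least 1 FPKM, and with a median log2 ratio of -0.09 against -0.03 for these loci. After plucking 3 of 8 were higher and 0 lower, namely S100a8, S100a9 and S100a7a, against 18.4% and 16.0% of all loci, with a median of 0.11 against 0.03. In wounds S100a8 and S100a9 were higher and S100a7a lower, 2 and 1 of 8, against 5.68% and 5.19% of all loci, with a median of 0.08 against 0.01. At this minimum the median of the list was close to that of all loci. With a minimum of 10 FPKM it was -0.1, -0.21 and 0.08 in the 3 pairs, against -0.23, 0.01 and -0.02 for all loci of that level. The larger differences stood in a few members.

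Of the other S100 genes, S100a1, S100a13 and S100a3 were the ones with a level in skin. S100a1, best known from muscle, had 21.7 and 31.5 FPKM in the unperturbed pair, 74.8 and 59.9 FPKM after plucking, and 147 and 168 FPKM in wounds. S100a13, which helps in the release of fibroblast growth factor 1, had 15.8 and 11.3 FPKM, 25.8 and 33.2 FPKM, and 32.2 and 28.8 FPKM. S100a3, a protein of the hair cuticle, had 7.63 and 10.98 FPKM in the unperturbed pair. None of these differences reached 2-fold.

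The remaining S100 genes were between 0 and 7.09 FPKM. In the unperturbed pair S100a7l2, listed there under its older symbol 9130204L05Rik, had 3.06 FPKM in wild type and was listed at 0 in JunB cKO, while S100a5 and S100a2 were listed at 0 in wild type and had 2.60 and 5.15 FPKM in JunB cKO, from 3 reads each. S100a2 was added to the list after the tables had been seen. S100b, a marker of glia and melanocytes, had 0.284 and 1.10 FPKM, 0 and 2.42 FPKM, and 4.80 and 7.09 FPKM in the 3 pairs, the wound values from 267 and 360 reads. S100g had 1.06 and 1.44 FPKM in the unperturbed pair, 0 in both genotypes after plucking, and 0 and 1.87 FPKM in wounds. S100z had 1.72 and 1.95 FPKM in the unperturbed pair and 0 in the other 4 values.

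S100a8 and S100a9 lie in the densest stretch of the family on chromosome 3 (GRCm38). S100a8 spans chr3:90668978-90670035 on the plus strand and S100a9 chr3:90692632-90695721 on the minus strand, while S100a7a ends upstream of S100a8 at chr3:90658669. From S100a1 to S100a9 the cluster spans 185 kb, and S100a11 and S100a10 lie near the far end of a 3.05 Mb stretch. Among the 42 other loci of this stretch with at least 1 FPKM in the unperturbed pair, 9 were higher by 2-fold or more in JunB cKO and 2 were lower. After plucking 12 of 50 were higher and 8 lower, and in wounds 7 of 52 were higher and 7 lower. Over all loci the shares were 15.4% and 1.42%, 18.4% and 16.0%, and 5.68% and 5.19%, respectively, and no test was run on the neighbours. These neighbours had median log2 ratios of 0.34, 0.37 and 0, respectively, and S100a8 and S100a9 lay above all of them after plucking, with the highest neighbour at 5.20. Within the same 185 kb S100a7a, the member nearest to S100a8, was past 2-fold after plucking and in wounds, in opposite directions, whereas S100a6, S100a14 and S100a16 stayed within 2-fold in every table.

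**Figure D5:**
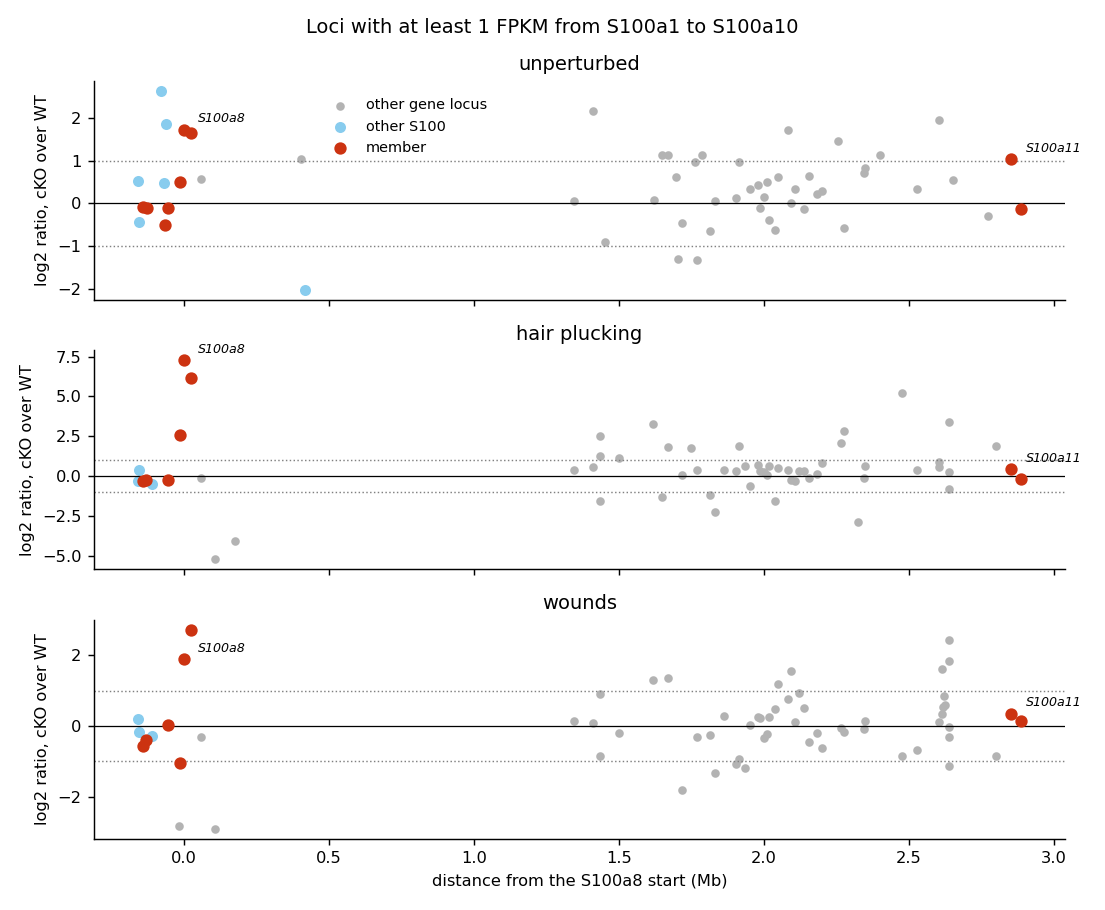
The log2 ratio of JunB cKO over wild type against the distance from the S100a8 start in Mb, for loci with at least 1 FPKM between S100a1 and S100a10, with members in red, other S100 loci in light blue and other gene loci in grey. The vertical axis differs between the 3 panels, and the dotted lines mark 2-fold. S100a8 and S100a9 are the highest points after plucking, and S100a7a, the member next to S100a8, lies at 2.59 after plucking and at -1.04 in wounds.

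Of 11 genes for receptors and partners of S100 proteins, none was past 2-fold in the unperturbed pair or in wounds, with median log2 ratios of -0.21 and 0.10, while 2 were higher and 1 was lower after plucking. Over all loci with at least 1 FPKM 18.4% were higher and 16.0% lower after plucking, so no result is read from these counts. After plucking Ly96, the co-receptor of Tlr4, was listed at 0 in wild type and had 18.4 FPKM in JunB cKO, and Ager, the receptor for advanced glycation end products, was listed at 0 and had 2.08 FPKM. Both zeros can be failed estimates, and the differences of Ly96 and Ager do not hold if they are. Tlr4 was at least 2-fold lower there, with 11.8 and 4.71 FPKM. In wounds the same 3 genes had 17.6 and 17.1 FPKM, 1.15 and 1.20 FPKM, and 19.3 and 22.2 FPKM. Tlr4 and Ager were below 1 FPKM in both genotypes in the unperturbed pair, whereas the other chain of the Tlr4 complex, Ly96, had 7.06 and 5.98 FPKM.

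Several partners of S100 proteins were among the abundant transcripts. Anxa2, which binds S100a10, had 1144 and 926 FPKM in the unperturbed pair, 546 and 458 FPKM after plucking and 331 and 312 FPKM in wounds, so that its log2 ratio was between -0.31 and -0.08. Anxa1, which binds S100a11, had 591 and 412 FPKM, 571 and 498 FPKM, and 566 and 502 FPKM. Ahnak, a large scaffold of the S100a10 and annexin A2 complex, had 575 and 499 FPKM, 549 and 610 FPKM, and 412 and 442 FPKM. Bsg, a surface receptor that binds S100a9, had 155 and 156 FPKM, 113 and 102 FPKM, and 99.5 and 122 FPKM. Cacybp, which binds S100a6, had 21.0 and 18.7 FPKM, 38.4 and 28.9 FPKM, and 41.8 and 27.9 FPKM, Anxa11 lay between 2.80 and 5.72 FPKM, and Myh9, a myosin that S100a4 binds, between 81.4 and 136 FPKM. Myd88, the adaptor of Tlr4, had 19.96 and 17.4 FPKM, 13.8 and 6.66 FPKM, and 8.15 and 11.9 FPKM, with a log2 ratio of -0.95 after plucking, just inside the limit.

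Genes with the pattern most like that of S100a8 and S100a9 were sought by the Euclidean distance between the 3 log2 ratios, over 10792 genes with at least 1 FPKM in every table. S100a9 was second for S100a8 and S100a8 first for S100a9, at a distance of 1.40. The gene nearest to S100a8 was Scarna8, at a distance of 1.37 and with log2 ratios of 0.74, 8.13 and 2.28, and the others were Snora31, Stfa1 and Snord89, at 1.99, 2.05 and 2.31. For S100a9 they were Snora31, Stfa1, Scarna8 and Srrd, at 1.79, 2.15, 2.23 and 2.26. Stfa1, a stefin A cysteine protease inhibitor, had 5.17 and 19.4 FPKM in the unperturbed pair, 0 and 49.0 FPKM after plucking, and 3.88 and 6.55 FPKM in wounds. Scarna8, Snora31 and Snord89 are small RNAs, whose FPKM depends strongly on the handling of short fragments. The likeness rests on 3 values per gene and is dominated by the plucked pair.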

How the data were processed

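Each library was made from the pooled total RNA of 3 samples after removal of rRNA, with a stranded kit, and read from 1 end. Per the labels and the study's methods, the authors aligned the reads to mm10 and obtained FPKM per gene locus with Cufflinks and Cuffdiff. The deposited tables hold FPKM as calculated by the authors, 1 value per genotype. Their log2 fold changes, p-values, q-values and test calls were not used. The condition of the plucked and wound tables comes from their names and matches the labels.

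The members and gene lists were chosen with earlier results of these data known. All 9 members were named, as were the genes of the S100 and partner lists, of each further list the genes with the largest difference past 2-fold in each direction or at 0 in both genotypes, and the 5 genes most like S100a8 and S100a9. Other marker genes were named after their values were seen. Of several loci with 1 symbol, that with the highest FPKM over both genotypes was taken, and 9130204L05Rik and Emr1 were read as S100a7l2 and Adgre1. Ratios were computed with a pseudocount of 1 FPKM and compared with loci of at least 1 FPKM in either genotype.

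Reads were estimated from FPKM and transcript length less 199 bases (GENCODE M21), after 49 of 49, 1042 of 1042, 7 of 7, 20 of 21, 78 of 95 and 26 of 34 receptor gene values (600 to 1300 bp, up to 50 reads) came out whole within 0.1 read in the wild type and JunB cKO columns of the 3 tables. For genes with several coding transcripts the number depends on the isoform, so reads are given for S100a8, S100a9, S100a7a and S100a11 (and low other genes), with the longest S100a9 transcript. Zeros can be failed estimates, since Gapdh is listed at 0 in both genotypes of the unperturbed table. Python 3.11.15, pandas 2.3.3, numpy 2.4.6, scipy 1.17.1 and matplotlib 3.10.9 were used, and the calculations were tested on simulated data. Protein sequences were not used here.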

Additional observations from a re-analysis of the deposited data

Results flagged for a closer look

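S100a7a had a log2 ratio of 2.59 after hair plucking and of -1.04 in wounds, so that the genotypes differed in opposite directions in these pairs. The difference between the pairs was not tested, as each table holds 1 value per genotype. The first value rests on a gene listed at 0 in wild type and the second on 3162 and 1384 reads.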

How the results depend on the processing

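The alternatives were pseudocounts of 0.1 and 0.01 FPKM, centring on the median ratio, upper quartile scaling, summed loci of a symbol, a 1.5-fold limit, a minimum of 10 FPKM and, chosen after seeing the data, the shared S100a3 and S100a4 locus counted as S100a4. All 125 log2 ratios of single members kept their side of the 2-fold limit, and 62 of 66 counts and medians stayed close to the reported ones. The exceptions were medians. In the unperturbed pair the median of -0.09 became 0.07 with centring and 0.14 with upper quartile scaling, which shifted all log2 ratios by about 0.15 and 0.23. After plucking the median of 0.11 became -0.21 with a minimum of 10 FPKM and -0.21 with the shared locus, as each changes the number of members. With a minimum of 10 FPKM 2 members were at least 2-fold higher in the unperturbed pair and 2 after plucking, in place of 3 and 3. The log2 ratio of S100a8 after plucking was 10.57 and 13.89 with the smaller pseudocounts. No paired analysis was possible because the wound table does not separate the libraries of a genotype, and for the same reason the planned limma fit, the fits without 1 library and the replicate block were not run. Depth limits S100a8, S100a9 and S100a7a most in the unperturbed pair.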

Other observations

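S100-fused type genes, which encode large proteins that begin with an S100 domain and serve the cornified layer and the inner root sheath of the hair, lie in the same complex. In the unperturbed pair Flg was the 1 of 7 past 2-fold, with 11.3 FPKM in wild type and 46.1 FPKM in JunB cKO, and Lor, which encodes loricrin and is no member of that list, had 47.0 and 213 FPKM. After plucking 3 of 7 were at least 2-fold higher, namely Tchh with 22.3 and 241 FPKM, Tchhl1 with 15.9 and 60.5 FPKM, and Crnn, which was listed at 0 in wild type and had 35.7 FPKM. The 0 of Crnn can be a failed estimate. Over all loci with at least 1 FPKM, 15.4% were at least 2-fold higher in the unperturbed pair and 18.4% after plucking, and these counts were not tested. In wounds Tchh was lower in JunB cKO, with 1945 and 882 FPKM, and 6 of 7 genes of the list had a log2 ratio below 0.

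Further marker lists differed as follows. After plucking the basal keratinocyte markers Itgb4 and Col17a1 were at least 2-fold higher in JunB cKO, with 27.8 and 58.7 FPKM and with 179 and 369 FPKM. Of the 6 basal markers 4 had a log2 ratio above 0, and the other 2, Krt14 and Krt15, had one below 0. The basal markers summed to 4876 FPKM in wild type and 4515 FPKM in JunB cKO. Of the melanocyte markers Mlana was listed at 0 and had 2.58 FPKM, and Tyr had 0.273 and 5.16 FPKM after plucking. In wounds Tyr had 26.2 and 6.91 FPKM, and Ivl, the suprabasal marker involucrin, 139 and 65.7 FPKM. Of the 5 suprabasal markers in wounds 3 had a log2 ratio above 0 and 2 below 0. These markers summed to 1814 FPKM in wild type and 2496 FPKM in JunB cKO. No T cell marker passed 2-fold in any table, with Trac listed at 0 in both genotypes after plucking. Of 8 widely used genes Eef1a1 in wounds was past 2-fold, with 3640 and 7914 FPKM.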
